A study of Homo sapiens with 4 samples.

Results

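Among the genes that differed between TRIAC-treated and control K562 cells, 5 serve the supply and loading of amino acids for protein synthesis, and they are described here. They are the cytosolic aminoacyl-tRNA synthetases *WARS*, *CARS*, *SARS* and *MARS* and the amino acid carrier *SLC7A5*, 5 of the 143 genes in the authors' deposited comparison. They were chosen by symbol from genes selected on their measured difference between the same 2 groups, so their lower values with TRIAC are a description and were not tested again. K562 is an established human erythroleukemia line. All cells received 10 µM hemin for erythroid differentiation, and for 48 h either 20 µM TRIAC, a thyroid hormone metabolite also known as tiratricol, or the solvent DMSO. RNA was sequenced from 2 libraries per group, and the sources used here do not say whether these stand for separate cultures. The deposited values are 1 expression value per gene and group, so the spread between libraries is not known here, no interval or p-value was computed, and the depth is unknown. The authors' own p-values were not used. Their unit is not stated. A gene that has no row was not analysed here and cannot be called unchanged.

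An aminoacyl-tRNA synthetase joins 1 amino acid to its tRNA, the step that ties the genetic code to protein. *WARS*, *CARS*, *SARS* and *MARS* load tryptophan, cysteine, serine and methionine. SLC7A5, also called LAT1, forms a plasma membrane carrier together with SLC3A2 that imports leucine, tryptophan and other large neutral amino acids, and it also carries thyroid hormones. When amino acids run short, the transcription factor ATF4 is made and raises the transcription of synthetase, carrier and amino acid synthesis genes through a short DNA sequence, the C/EBP-ATF response element. These statements are general background and not results of these data.

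All 5 genes had a lower expression value in TRIAC-treated than in control cells, by 3.06 to 5.65 times, although *SARS* and *MARS* move to the other side of 0 when the log2 ratios are centred on the median of the table, which was -1.82. The background is high, since 82 of the 143 genes, 57.3%, were lower with TRIAC. Each of these 82 was at least 2-fold lower, as were the 5 genes here. Because bulk RNA was measured, fewer cells with a transcript and less of it per cell cannot be told apart.

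*WARS*, which encodes the tryptophanyl-tRNA synthetase, an enzyme also known to be induced by interferon, had an expression value of 6099 in control cells against 1079 with TRIAC. This is 5.65 times lower, a log2 ratio of -2.50, and left 17.7% of the control value. It was the lowest ratio of the 5 genes. *SLC7A5* had 6692 in control cells against 1562 with TRIAC, which is 4.29 times lower (log2 ratio -2.10).

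*CARS*, the cysteinyl-tRNA synthetase gene, was the least expressed of the 5, with 1389 in control cells against 355 with TRIAC, 3.91 times lower (log2 ratio -1.97). *SARS* went from 3964 to 1248, 3.18 times lower (log2 ratio -1.67). Its enzyme loads serine also onto the tRNA for selenocysteine, and the authors' annotation lists this process for it. *MARS* went from 3346 to 1094, 3.06 times lower (log2 ratio -1.61). Methionyl-tRNA is needed to start every protein, and its synthetase is part of the large complex that holds several of these enzymes. The ratios of *SARS* and *MARS* differed by 0.06 on the log2 scale and those of *MARS* and *WARS* by 0.89. Without values per library it cannot be said whether either difference exceeds the spread between replicates.

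To set levels of different genes side by side, the values were divided by the listed length of 2127 bases (*SARS*) to 4543 bases (*SLC7A5*), which assumes that they were not already corrected for length. The unit is not stated, so this is an assumption. Per kb, *WARS* was highest in control cells at 2275, then *SARS* at 1864, *SLC7A5* at 1473, *MARS* at 1141 and *CARS* at 495. In TRIAC-treated cells *SARS* was highest at 587 per kb, then *WARS* at 402, *MARS* at 373, *SLC7A5* at 344 and *CARS* at 127. On this scale *WARS* and *SARS* exchanged places, as did *SLC7A5* and *MARS*, while *CARS* was last in both groups. Among all 143 genes, *WARS* was at rank 12 per kb in control cells and 22 with TRIAC, and *SLC7A5* at rank 16 and 26. The level of *WARS* per kb was 1.22 times that of *SARS* in control cells and 0.686 times that of *SARS* with TRIAC. The highest of the 5 genes was 4.60 times the lowest in control cells and 4.63 times the lowest with TRIAC. Without division by length the order was another one: *SLC7A5* was the highest of the 5 in both groups, with no exchange with *MARS*, and *WARS* was second in control cells and at place 4, below *MARS*, with TRIAC.

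**Figure D1:**
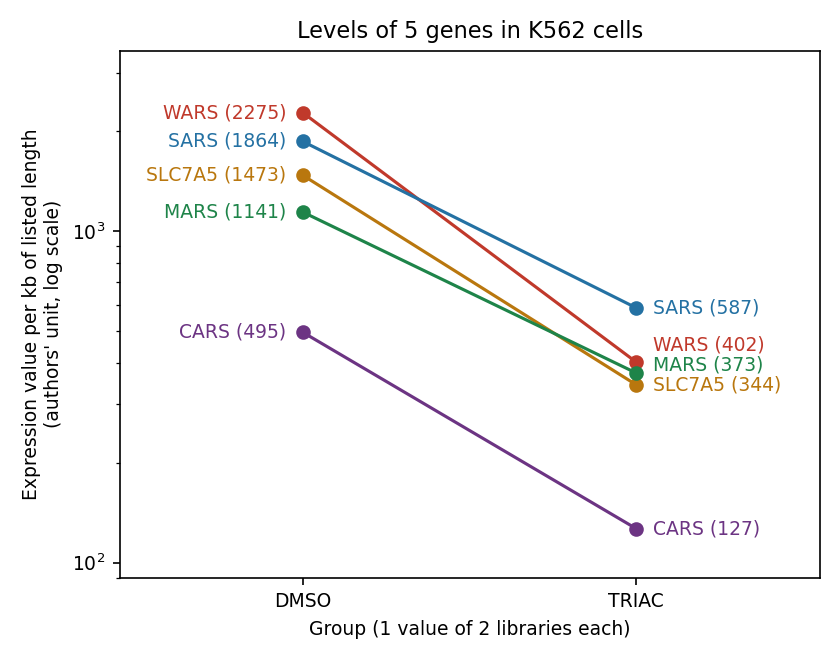
Expression value per kb of listed length (vertical axis, authors' unit, log scale) of 5 genes in DMSO-treated and TRIAC-treated K562 cells, with 1 value for each group, without error bars, and a line for each gene. All lines slope down, and the steepest, *WARS*, runs from 2275 to 402 and crosses that of *SARS*.

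Summed per kb, the 4 synthetases had 5775 in control cells against 1489 with TRIAC, 3.88 times lower. *WARS* made up 39.4% of this sum in control cells and 27.0% with TRIAC. *SARS* made up 32.3% and 39.4%, *MARS* 19.8% and 25.1%, and *CARS* 8.57% and 8.50%. The mixture of the 4 transcripts therefore held less *WARS* and more *SARS* and *MARS* with TRIAC, at nearly the same share of *CARS*. These shares do not depend on any scaling between the groups, but they rest on the listed lengths. The protein-coding GENCODE 44 transcript nearest in length has 1914 bases for *SARS*, against 2127 listed, and 4556 bases for *SLC7A5*, against 4543 listed.

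Against the other lower genes, the 5 stood at a high level and a small ratio. The median of the 80 lower genes with both values above 0 was 5.99 times lower (log2 ratio -2.58), and none of the 5 genes was beyond it. By ratio, *WARS* was at rank 46, *SLC7A5* at 57, *CARS* at 66, *SARS* at 77 and *MARS* at 79 of the 82 lower genes. By level per kb in control cells the same genes were at ranks 7, 11, 22, 9 and 13 of the 82. The 5 genes are 6.10% of the lower genes, and the difference between their values in the 2 groups, per kb, was 13.4% of that summed over all lower genes. The 23 other lower genes with a control value above 1000, not divided by length, had a median log2 ratio of -2.01 with a wide range, from -4.40 (*DDIT4*) to -1.45. The 5 genes, which were above 1000 as well, had a median of -1.97, close to that of these 23. The set spans a wide range of levels, though. The other lower genes with a control value between those of *MARS* and *SLC7A5* were *DDIT4* at -4.40, *ASNS* at -3.20 and *MTHFD2* at -2.01. Against these, *SARS* at -1.67 and *MARS* at -1.61 had small ratios, while *WARS* and *SLC7A5* lay within their range. Across the 80 genes, Spearman's rho between level per kb in control cells and log2 ratio was 0.56 and Pearson's r, with the level on the log2 scale, was 0.54. These correlations are across genes that share the same libraries, and the control value enters both measures. They also cover only genes that were called different, and that selection can by itself shape a relation between level and ratio.

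**Figure D2:**
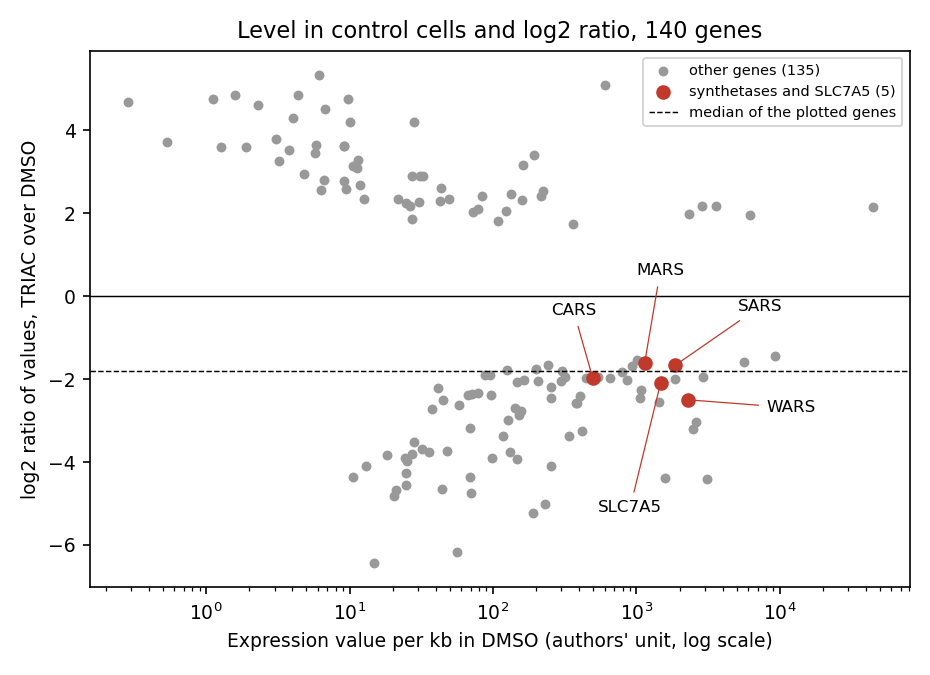
Expression value per kb in DMSO-treated cells (horizontal axis, authors' unit, log scale) and log2 ratio of TRIAC over DMSO (vertical axis) for the 140 genes that are above 0 in both groups; red points are the 5 genes and the dashed line is the median of all 140, -1.82. *SARS* and *MARS* lie just above the dashed line and *CARS*, *SLC7A5* and *WARS* below it.

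The genes nearest to each of the 5 in level per kb in both groups were found by the distance between log2 levels, over 2 groups. For *WARS* they were *MTHFD2*, a mitochondrial enzyme of one-carbon metabolism, at a distance of 0.35, and *GDF15*, a secreted stress hormone, at 0.41. *MTHFD2* was also nearest to *SARS*, at 0.33, with 1868 per kb in control cells and 465 with TRIAC. For *SLC7A5* it was *PSAT1*, the second enzyme of serine synthesis, at 0.49, for *CARS* it was *CD68* at 0.21, and for *MARS* it was *VIM-AS1* at 0.20. In the order of ratios, *VEGFA* and *SLC31A1* stood next to *SARS*, *SLC31A1* and *VIM* next to *MARS*, *HERPUD1* and *LGALS1* next to *CARS*, *SPI1* and *SMAD6* next to *SLC7A5*, and *PIP5KL1* and *ATF5* next to *WARS*.

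Of 20 cytosolic synthetase genes, 4 had a row and all 4 were lower, with a median log2 ratio of -1.82, and 16 have no row. None of 17 mitochondrial synthetases, 4 genes of synthetase scaffolds and tRNA export or 6 translation elongation factors had a row. In the authors' annotation the pathway aminoacyl-tRNA biosynthesis was listed for 4 genes of the table, which are these 4. Of 7 large neutral amino acid carriers with their partner, and of 12 thyroid hormone carriers, *SLC7A5* alone had a row, so its partner *SLC3A2* was not analysed here. Of 20 other amino acid carriers 1 had a row, *SLC1A4*, which carries alanine, serine, cysteine and threonine. It went from 1169 to 214, 5.45 times lower (log2 ratio -2.45), a ratio between those of *WARS* and *SLC7A5*. *SLC6A19*, a carrier of neutral amino acids in gut and kidney that is not in the list and was added after its value was seen, was higher instead, from 1.47 to 37.4 (log2 ratio 4.67).

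The genes of amino acid and one-carbon synthesis with a row had a lower median ratio than the 4 synthetases, though the 2 ranges overlapped. Of 20 genes of amino acid and one-carbon synthesis, 8 had a row, each of them lower, with a median log2 ratio of -3.23, and 12 had none. They range from -5.22 for *ASS1*, the argininosuccinate synthase, to -2.01 for *MTHFD2*, and of the 5 genes *WARS* and *SLC7A5* fall within this range. The serine and cysteine that SARS and CARS load are made with PHGDH, the first enzyme of serine synthesis, at -4.38, PSAT1 at -2.55 and CTH, the last enzyme of cysteine synthesis from methionine, at -3.26. Of 22 regulators and effectors of the ATF4 pathway, 10 had a row, each of them lower, with a median of -3.37 and a range from -5.01 (*NUPR1*) to -1.83 (*CEBPB*). The other 12, *ATF4* itself among them, had none. Over all 140 genes the median was -1.82. These lists were drawn up with results of these data known, and nothing particular to them is read from the counts.

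Marker genes of the cell type differed between the groups as well. Of 16 erythroid markers 10 had a row and each was higher with TRIAC, with a summed expression value of 38582 in control and 181546 in TRIAC-treated cells, most of it *HBG2*. None of the 10 was at 0 in either group, and *TFRC* and *GATA1* have no row. Of 13 myeloid and lymphoid markers 3 had a row, *CD68*, *SPI1* and *CD3D*, with a summed value of 1493 in control and 361 in TRIAC-treated cells. The part of these differences in the values of the 5 genes was not tested.

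The promoters of the 5 genes were searched for the response element and 4 other motifs. RefSeq windows of 300 bases, 250 before and 50 after a start site (GRCh38.p14), were at hand for all 5 genes, 8 windows in all. The C/EBP-ATF response element was searched as TGATGNAAN on both strands, where N is any base. It was found in *CARS* and *MARS*, 2 of 5 genes, against 4.45% of 27305 genes with windows. Both matches lie on the strand opposite to the gene and across the start site itself, at bases -3 to 6 for *CARS* and -5 to 4 for *MARS*, counted from 1 at the first transcribed base with no base 0. So neither was found when the bases before the start alone were searched. The 2 stretches are shown in the direction of the gene because both carry the same element, in capitals, across the start site:
*CARS*, chr11:3057415-3057456, minus strand: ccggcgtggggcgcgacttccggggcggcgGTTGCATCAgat
*MARS*, chr12:57488033-57488074, plus strand: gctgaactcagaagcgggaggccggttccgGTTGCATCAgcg

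The 9 bases in capitals are identical in both genes. With the bases beside them, *CARS* and *MARS* share an unbroken run of 12 bases, cgGTTGCATCAg, the longest run the 2 windows have in common. This run was found in 2 of all 35116 windows, those of *CARS* and *MARS*. A shared run of this length is not particular to the pair. The windows of *CARS* and *SLC7A5* share another run of 12 bases, without the element, which was found in 12 windows. The 9 bases of the element alone occur, on either strand, in windows of 75 genes, or 0.275% of 27305, and 5 of them are in the table. These are *CARS*, *MARS*, *HERPUD1*, *IL20RB* and *JDP2*, all lower with TRIAC. The runs were looked up after they had been seen in *CARS*, *MARS* and *SLC7A5*, and a match does not show that a factor binds there.

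In the table as a whole, windows were at hand for 99 genes. The C/EBP-ATF response element was found in 14 of 63 lower genes, 22.2%, and in 0 of 36 higher genes. Its share over all genes with windows was 4.45%, and 0 in only 36 genes lies near that share. With the bases before the start alone, 10 of the 63 lower genes held it, 15.9%, against 3.87% of all genes. The E-box CACGTG went the other way, in 5 of 63 lower genes, 7.94%, and 4 of 36 higher genes, 11.1%. Its share over all genes was 8.77%. The motif AGGTCA is a part of a thyroid hormone receptor site and not a whole one, and none of the 5 genes holds it. It was found in 13 of 63 lower genes, 20.6%, and in 3 of 36 higher genes, 8.33%. Its share over all genes, 16.5%, lies between these shares, and the difference was not tested. *SARS*, *WARS* and *SLC7A5* are among the lower genes without the C/EBP-ATF response element in these windows. Of the lower genes in the lists above, *SLC1A4*, *ASNS*, *JDP2* and *ATF3* held the C/EBP-ATF response element. Their elements are shown for comparison with those of *CARS* and *MARS*, with the match in capitals and in the direction of each gene:
*SLC1A4*, chr2:64989376-64989399, plus strand: cgttcgcggctcccgTTTGCATCA
*JDP2*, chr14:75427991-75428021, plus strand: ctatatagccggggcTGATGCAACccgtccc
*ASNS*, chr7:97872453-97872491, minus strand: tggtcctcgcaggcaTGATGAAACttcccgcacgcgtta
*ATF3*, chr1:212565201-212565239, plus strand: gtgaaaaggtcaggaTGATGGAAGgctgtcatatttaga
In *SLC1A4* the element has the orientation seen in *CARS* and *MARS* and ends on base 1 of the transcript, while in the other 3 genes it lies before the start in the opposite orientation, at -16 to -8 in *JDP2*, -68 to -60 in *ASNS* and -191 to -183 in *ATF3*.

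Of the other motifs, the E-box CACGTG was found in *SLC7A5*, at bases -130 to -125, against 8.77% of all genes with windows. The interferon response element, a pair of GAAA boxes with any 2 bases between them, was found in *WARS*, at -55 to -46 of the second of its 2 listed start sites, against 4.38% of all genes. Both are shown because they are the only matches in these 2 genes:
*SLC7A5*, chr16:87869620-87869658, minus strand: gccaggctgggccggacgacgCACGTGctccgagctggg
*WARS*, chr14:100375381-100375423, minus strand: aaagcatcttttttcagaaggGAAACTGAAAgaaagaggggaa
AGGTCA, a part of a thyroid hormone receptor site, was present in 16.5% of all genes with windows. The cyclic AMP response element TGACGTCA was present in 2.25%. Neither was found in the windows of the 5 genes, and *SARS* held none of the 5 motifs. That no match was found says only that these letters are not in these windows.

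**Figure D3:**
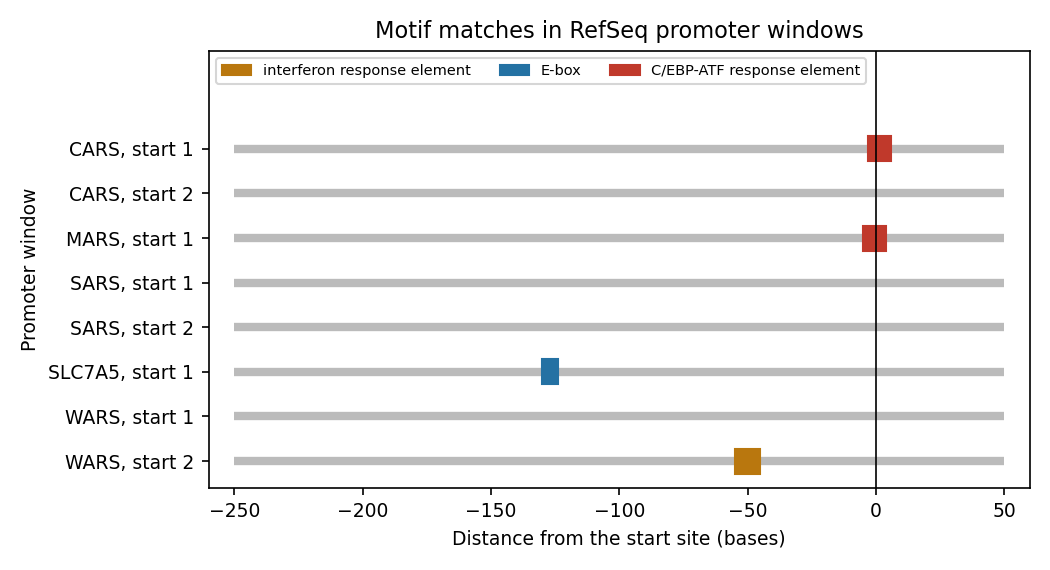
Position of motif matches (colored blocks) relative to the start site (horizontal axis, bases, start at 0) in the 8 RefSeq promoter windows of the 5 genes (vertical axis, starts numbered from the most upstream). The C/EBP-ATF response element crosses the start site in the first window of *CARS* and in *MARS*, and the 2 windows of *SARS* hold no match.

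The genes lie apart in the genome. On GRCh38.p14, *SARS* (NCBI Gene 6301, now *SARS1*) lies on chromosome 1 from 109213893 to 109238182, *CARS* (833, now *CARS1*) on chromosome 11 from 3000929 to 3057423 and *MARS* (4141, now *MARS1*) on chromosome 12 from 57488068 to 57516652. *WARS* (7453, now *WARS1*) lies on chromosome 14 from 100333790 to 100376327 and *SLC7A5* (8140) on chromosome 16 from 87830023 to 87869507. Reads could be shared with other transcripts in few places. Of the 50-base windows of an *SLC7A5* transcript, 4.08% also lie, in the same orientation, in transcripts of other genes, the pseudogenes *SLC7A5P2* and *SLC7A5P1* among them, and for the 4 synthetases this was 0%. In the opposite orientation, transcripts of other genes hold 2.39% of the windows of *WARS*, 1.79% of those of *CARS* (all in *CARS1-AS1*) and 1.51% of those of *SLC7A5*. In GENCODE 44, exons of *MARS* overlap those of *ARHGAP9* by 519 bases and exons of *WARS* those of *WDR25* by 287 bases, both on the opposite strand. The exons of *MARS* also overlap those of *DDIT3*, the ATF4 pathway factor CHOP, on the opposite strand by 355 bases, at the 3′ end of *MARS*. Of the windows of the *MARS* transcript, 0.582% lie in *DDIT3*. The sources used here do not say whether reads were counted by strand, and *DDIT3* has no row.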

How the data were processed

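RNA-seq libraries of K562 cells (2 with DMSO, 2 with TRIAC) were grouped by their titles. The authors deposited an expression signal value per gene and group, from the 2 libraries together, for the genes they called different, with a listed length. Tools named in the submitters' processing notes are RSEM, edgeR, Bowtie2, FastQC, Trimmomatic and CASAVA 1.8, with the build GRCh38, while their design text names BWA, TopHat and Cufflinks. Neither says which made the values, nor the depth. The deposited table also holds the authors' own fold changes, p-values and adjusted p-values, which were not used. No sample column was left unmatched (0).

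The plain log2 ratio of the 2 values, with no pseudocount, and values per kb of listed length were computed. No test was possible with 1 value per group. Genes with a 0 in a group (3 of 143) have no ratio. Named are the 5 genes, genes with a row in 11 fixed lists (157 entries), the 2 nearest genes by level and the neighbours by ratio, and genes of motif matches and overlaps. Solute carriers outside these were chosen by symbol after their values were seen. The members and lists were chosen with earlier results of these data known. Motifs were matched on both strands of RefSeq promoter windows, genes were matched by NCBI Gene ID (143 of 143), and 50-base windows of the protein-coding GENCODE 44 transcript nearest to the listed length were searched in all other transcripts. Alternatives were pseudocounts of 1 and 10, other scalings, a 2-fold limit, a filter at the lower quartile of the mean value, no division by length and the bases before the start alone. Protein sequences were not analysed here. The scripts, tested on simulated data, used matplotlib 3.10.9, scipy 1.17.1, numpy 2.4.6, pandas 2.3.3 and Python 3.11.15.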

Additional observations from a re-analysis of the deposited data

How the results depend on the processing

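Centred on the median log2 ratio of the table, the log2 ratios became -0.68 for *WARS*, -0.28 for *SLC7A5* and -0.15 for *CARS*, and turned to 0.15 for *SARS* and 0.20 for *MARS*. By construction the shift is large, since the table lists only genes called different and 82 of its 143 genes were lower. With each group divided by its summed values, the log2 ratios were -3.16 for *WARS*, -2.76 for *SLC7A5*, -2.63 for *CARS*, -2.33 for *SARS* and -2.27 for *MARS*. These sums also cover only genes called different. *HBG2* alone made up 25809 of 154832 in control cells and 114251 of 244298 with TRIAC. With no spread between replicates, a log2 ratio was held to have moved when the fold it stands for differed by over 1.5 times. With a pseudocount of 1 or 10, and with centring between the medians of lower and higher genes, a setting added after the data were examined, none of the 5 ratios moved. A 2-fold limit or a filter on low values left the count of 5 lower genes and moved no count of a gene list by over 1.5 times. The smallest fold among the lower genes was 2.73 and the smallest log2 ratio among the higher genes was 1.74. So the 2-fold limit could remove no gene. Nor could the filter, at a mean value of 81.7, remove any of the 5 genes, whose lowest mean value was 872 (*CARS*). No paired analysis was possible because the values are 1 per group and carry no replicate number, and leaving out a library could not be run for the same reason. Depth, and with it the precision of every value, is unknown.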

Other observations

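Besides *SLC7A5* and *SLC1A4*, 6 genes of other solute carriers had a row, chosen here by their symbols after the values were seen. Of all 8 solute carriers, 4 were lower and 4 were higher with TRIAC. *SLC2A3*, a glucose carrier, went from 1749 to 443 (log2 ratio -1.98), and *SLC31A1*, the copper importer, from 1166 to 370 (log2 ratio -1.65), ratios close to those of *CARS* and *SARS*. Higher were *SLC12A7*, a potassium chloride cotransporter, from 145 to 528 (log2 ratio 1.86), *SLC22A4*, which carries ergothioneine, from 23.3 to 204 (log2 ratio 3.13), and *SLC4A1*, the anion exchanger band 3 of red cells, from 15.2 to 210 (log2 ratio 3.79). The fourth was *SLC6A19*, described above.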
